A study of Mus musculus with 20 samples.

Results

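The genes described here are 33 enzymes, carriers and regulators of glycolysis, gluconeogenesis and pyruvate entry into mitochondria, picked by name from the pathway and matched by gene ID to the count tables, which list 43430 genes. All 33 were found, and all 33 passed the filter on low counts that left 16152 genes for testing. The libraries were bulk RNA-Seq of the renal cortex of male C3H/HeJ mice that were 10 weeks old when a high-fat diet began. SP (Sweet Pee) mice are homozygous for a missense mutation in Slc5a2, which encodes the sodium-glucose cotransporter SGLT2, and WT mice carry no such mutation. The mice were fed the diet for 8 weeks and then injected intraperitoneally 3 times per week for a further 8 weeks with MAT2Ai, a styryl aniline inhibitor of methionine adenosyltransferase 2A given at 10 mg/kg, or with its solvent DMSO as placebo. The 4 groups of 5 libraries were SP MAT2Ai, SP placebo, WT MAT2Ai and WT placebo. Every group received the high-fat diet, and the SP mutation is present in all cells from the germ line, not in a single cell type or from a chosen time.

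Glycolysis splits glucose into pyruvate. Its committed step is made by phosphofructokinase (Pfkl, Pfkm and Pfkp encode the subunits), which fructose 2,6-bisphosphate activates, and the bifunctional enzymes of the Pfkfb family make and remove that activator. Gluconeogenesis runs the path in reverse through pyruvate carboxylase (Pcx), phosphoenolpyruvate carboxykinase (Pck1 and Pck2), fructose bisphosphatase (Fbp1 and Fbp2) and glucose 6-phosphatase (G6pc, with the carrier Slc37a4). In the kidney cortex gluconeogenesis is a task of the proximal tubule, which also reabsorbs filtered glucose through SGLT2, while glycolysis is stronger in the distal segments. Pyruvate enters mitochondria through the carrier made of Mpc1 and Mpc2 and is then oxidised by pyruvate dehydrogenase, of which Pdha1 and Pdhb encode subunits.

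The promoters of 32 of the 33 members were listed in RefSeq for build GRCm38.p6, as 50 windows of 300 bases that each span an annotated transcription start. The letters ACGTG, the core bound by hypoxia-inducible factors, were searched on both strands (CACGT is the reverse complement) and were present in 19 of 50 member windows (38.0%), against 6447 of all 32851 windows (19.6%). CACGTG, an E-box that contains ACGTG on both strands, was present in 7 member windows (14.0%), against 7.15% of all windows. TGACG, a core of the cAMP response element (CGTCA on the other strand), was present in 15 member windows (30.0%), against 20.8% of all windows. TATAAA or TTTATA was present in 3 member windows (6.0%), those of G6pc, Pklr and Slc37a4, against 13.6% of all windows. Member windows had a median GC content of 58.2%, against 52.7% over all windows, and windows of 1 gene can overlap, so these shares are descriptions only. The windows shown, 5′ to 3′ on the strand of the gene, are those of Pfkfb3, the member with the smallest p for MAT2Ai in WT mice, of Ldha, whose upstream window held the most ACGTG matches of any member (5, where an E-box counts as 2), and of Pck1, the most abundant member. Capitals mark every match to ACGTG or TGACG on either strand, and adjoining capitals are matches that overlap. The Pfkfb3 windows lie on the minus strand at chr2:11502041-11502340 (downstream start) and chr2:11553880-11554179 (upstream start), the Ldha window on the plus strand at chr7:46845554-46845853, and the Pck1 window on the plus strand at chr2:173152823-173153122.
Pfkfb3, downstream start: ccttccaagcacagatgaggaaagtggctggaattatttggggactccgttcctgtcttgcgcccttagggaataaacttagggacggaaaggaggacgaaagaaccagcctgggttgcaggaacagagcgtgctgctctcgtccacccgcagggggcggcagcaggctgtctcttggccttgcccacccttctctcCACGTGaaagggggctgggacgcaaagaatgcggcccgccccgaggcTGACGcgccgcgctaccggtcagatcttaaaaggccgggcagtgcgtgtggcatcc
Pfkfb3, upstream start: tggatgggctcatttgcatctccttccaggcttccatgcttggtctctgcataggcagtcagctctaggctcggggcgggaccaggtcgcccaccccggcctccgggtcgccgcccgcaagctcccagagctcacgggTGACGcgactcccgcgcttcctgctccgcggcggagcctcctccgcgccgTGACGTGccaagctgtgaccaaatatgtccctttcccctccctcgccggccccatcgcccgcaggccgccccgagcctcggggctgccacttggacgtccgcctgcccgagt
Ldha, upstream start: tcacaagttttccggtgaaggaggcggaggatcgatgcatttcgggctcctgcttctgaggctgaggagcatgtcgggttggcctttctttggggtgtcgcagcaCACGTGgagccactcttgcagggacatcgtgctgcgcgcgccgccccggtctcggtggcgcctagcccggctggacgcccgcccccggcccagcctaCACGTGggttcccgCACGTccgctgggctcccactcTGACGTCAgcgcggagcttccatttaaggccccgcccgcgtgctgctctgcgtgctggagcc
Pck1: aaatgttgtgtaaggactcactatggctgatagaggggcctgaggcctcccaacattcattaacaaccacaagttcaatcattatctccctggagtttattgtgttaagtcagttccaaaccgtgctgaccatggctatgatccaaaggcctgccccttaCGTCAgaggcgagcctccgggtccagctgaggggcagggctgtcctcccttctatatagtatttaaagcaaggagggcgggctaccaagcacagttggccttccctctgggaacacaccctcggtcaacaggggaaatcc

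The Pfkfb3 window at the downstream start holds an E-box and a separate TGACG match, and the one at the upstream start holds TGACG in another place and a TGACGTG run in which both motifs overlap. Ldha, which encodes the lactate dehydrogenase subunit typical of glycolytic tissue, holds 2 E-boxes in its upstream window. Pck1 holds no ACGTG, and its single TGACG match lies on the other strand, upstream of its start. A match describes letters in these windows and says nothing of binding in these kidneys.

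Each library held 53296824 to 79339949 counts in genes, of which the 33 members took 764820 to 1145062 counts (1.19% to 1.64%). Mitochondrially encoded genes took 12.4% to 22.2%. Slc5a2 had 72.6, 47.0, 43.5, 85.9 and 60.0 CPM (counts scaled to 1000000 per library) in SP MAT2Ai libraries, 241, 282, 70.1, 40.2 and 56.7 CPM in SP placebo libraries, 415, 229, 390, 325 and 385 CPM in WT MAT2Ai libraries and 371, 518, 380, 405 and 448 CPM in WT placebo libraries. The libraries labelled SP placebo replicates 1 and 2 thus lay far above the other 3 SP placebo libraries (40.2 to 70.1 CPM), above WT MAT2Ai replicate 2 (229 CPM) and below the other 9 WT libraries (325 to 518 CPM), so comparisons that use SP placebo were also made without them. The 11 proximal tubule markers were abundant in every library (summed level 11775 to 23520 CPM). The skeletal muscle list, whose tissue expresses Eno3, Pfkm, Fbp2 and Hk2, summed to 2.59 to 7.86 CPM over 8 genes, with Myh4 at 0 in every library.

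WT MAT2Ai replicate 2 stood apart from the other 19 libraries. It had the lowest CPM of all 20 libraries for 15 of the 33 members and the highest for 4, while no other library was at either end for more than 7 members. How often this library was at either end over all tested genes was not counted, so the members are not set apart from other genes. Among gluconeogenic members its Fbp1 level was 636 CPM, against 1060 to 1358 CPM in the other 19 libraries, and its Slc37a4 level was 224 CPM, against 275 to 386 CPM. All 4 members of pyruvate entry and both members of the entry of other sugars were at their lowest there. Khk, the fructokinase, was at 537 CPM, against 685 to 963 CPM, and Galm, the galactose mutarotase, at 58.9 CPM, against 90.3 to 126 CPM. Its phosphofructokinase subunits diverged, with Pfkm at 21.3 CPM, against 36.8 to 46.4 CPM, and Pfkp at 81.2 CPM, against 22.6 to 40.9 CPM. Pfkfb3, Hk2 and the mitochondrial Pck2 were the other members at their highest, with Pfkfb3 at 28.9 CPM, against 7.45 to 16.1 CPM. Pck1, by contrast, was within the range of the other 19 libraries, at 5109 CPM.

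The same library had the highest summed level of the 10 injured tubule markers, 8083 CPM, against 548 to 987 CPM in the other 4 WT MAT2Ai libraries and 465 to 716 CPM in the other groups, and none of the 10 markers was without counts. Its proximal tubule markers summed to 11775 CPM, against 18469 to 20953 CPM in the other 4 WT MAT2Ai libraries and 19435 to 23520 CPM in the other groups. In bulk tissue fewer cells of a type and less RNA per cell cannot be told apart. The part of these markers in the levels of the members was not tested, and the number of called members in each comparison that uses WT MAT2Ai was also counted without this library. It was 0 in each, and single values without it are given for some of the genes.

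**Figure D1:**
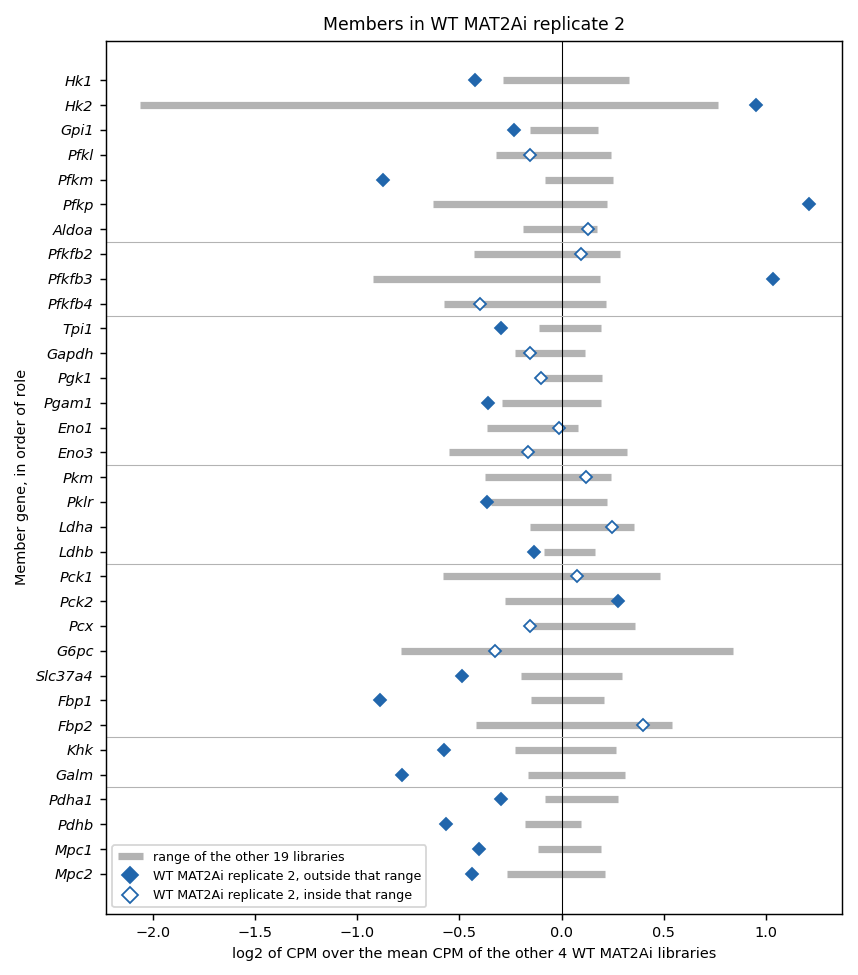
The 33 members in WT MAT2Ai replicate 2, as log2 of CPM over the mean of the other 4 WT MAT2Ai libraries (x axis), in order of role (y axis). Grey bars span the other 19 libraries, and filled diamonds (19 members) lie outside that span, 15 on the low side and 4 on the high side. The share of all tested genes outside that span was not counted.

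Levels can be compared between genes only per length, and are given as CPM per kilobase of the principal transcript, median of 20 libraries. The gluconeogenic Pck1 (1763 CPM per kb) and Fbp1 (816) led the order, followed by the lactate dehydrogenase subunit Ldhb (759) and the fructokinase Khk (550). The triose enzymes Aldoa (aldolase, 516), Gapdh (glyceraldehyde 3-phosphate dehydrogenase, 468) and Tpi1 (triose phosphate isomerase, 441) came next. The upper, regulated steps of glycolysis were low. Hk1 stood at 16.7, Pfkm at 14.0, Pfkl at 12.4 and Pfkp at 7.41 CPM per kb, and Hk2, the inducible hexokinase, at 0.0442 CPM per kb. Pfkfb4 (2.72), Pfkfb3 (2.25) and Pfkfb2 (1.02) were also among the 6 lowest members. Among paired isozymes, Pck1 exceeded the mitochondrial Pck2 (3.0), Fbp1 exceeded the muscle-type Fbp2 (8.21), and Pkm (52.0) exceeded Pklr (8.45), the liver and red cell pyruvate kinase. For 25 of the 32 neighbouring pairs in the order the ranges over the 20 libraries overlapped. Pck1 did not overlap Fbp1 below it, and Ldhb did not overlap Khk.

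**Figure D2:**
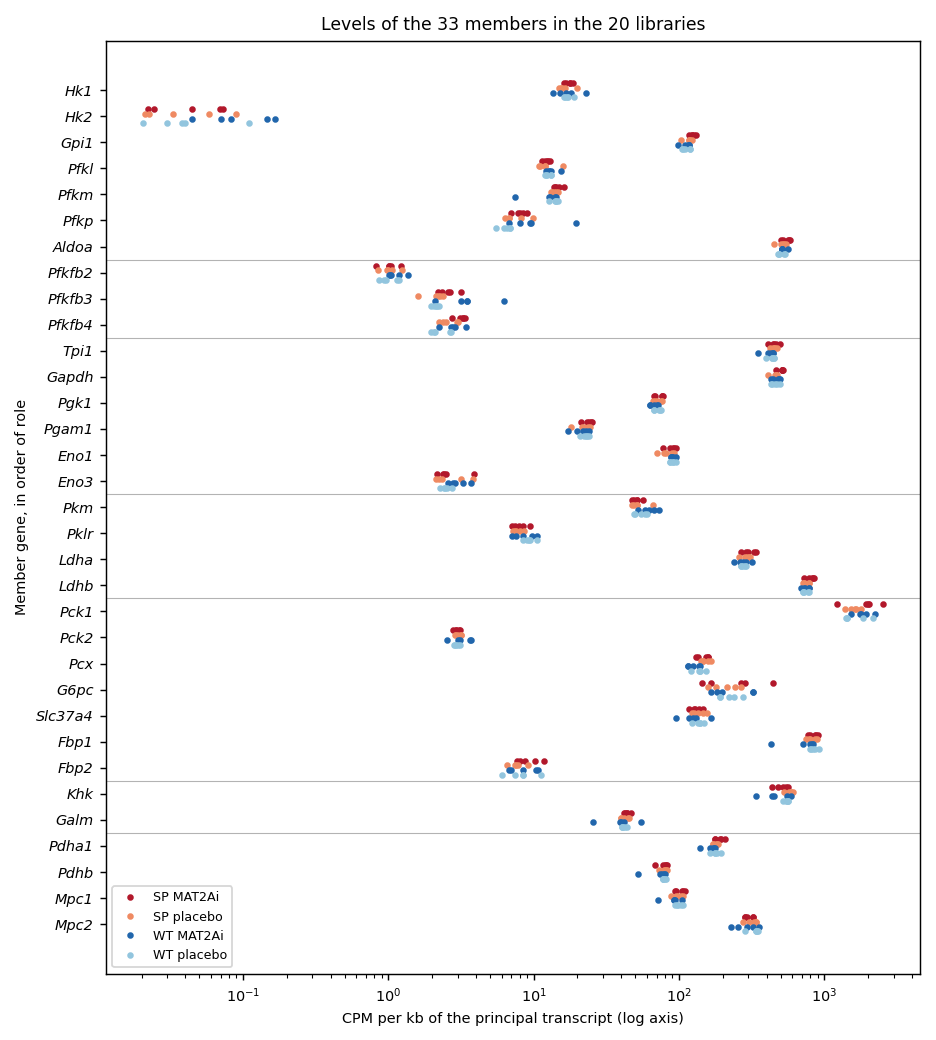
Levels of the 33 members as CPM per kb of the principal transcript on a log axis (x axis), in order of role (y axis), with 1 point per library and colours for the 4 groups. Pck1 (median 1763) and Hk2 (median 0.0442) mark the ends of the order.

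Most members varied little. Over all 20 libraries the highest level was 1.23 times the lowest for Ldhb and 1.24 times for Pgk1, but 3.08 times for G6pc, 3.59 times for Pfkp, 3.89 times for Pfkfb3 and 8.10 times for Hk2, which rests on 7 to 59 counts per library. Hk1, the hexokinase of most tissues, averaged 66.8 ± 3.74 CPM in SP MAT2Ai, 63.4 ± 7.60 in SP placebo, 66.4 ± 13.6 in WT MAT2Ai and 66.1 ± 4.28 in WT placebo (SD, n = 5 each).

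Along the upper path of glycolysis, Gpi1 averaged 357 ± 14.5 CPM in SP MAT2Ai, 334 ± 21.4 in SP placebo, 321 ± 23.8 in WT MAT2Ai and 323 ± 19.5 in WT placebo. Pfkl, the liver-type subunit of phosphofructokinase, averaged 45.6 ± 2.44 CPM in SP MAT2Ai, 46.1 ± 7.78 in SP placebo, 49.4 ± 4.70 in WT MAT2Ai and 46.7 ± 2.22 in WT placebo. Pfkm, the muscle-type subunit, averaged 42.1 ± 2.75 CPM in SP MAT2Ai, 40.0 ± 1.80 in SP placebo, 35.4 ± 8.12 in WT MAT2Ai and 40.3 ± 2.06 in WT placebo. In WT MAT2Ai replicate 2 was at 21.3 CPM of Pfkm, while the other 4 libraries lay between 36.9 and 41.1 CPM. Pfkfb2, the heart-type isozyme, was the flattest of the Pfkfb members, at 4.52 ± 0.61 CPM in SP MAT2Ai, 4.53 ± 0.63 in SP placebo, 4.995 ± 0.65 in WT MAT2Ai and 4.496 ± 0.62 in WT placebo.

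Over all 20 libraries the coefficient of variation was 6.51% for Pgk1, 6.69% for Gapdh, 6.93% for Tpi1, 7.23% for Eno1 and 9.45% for Pgam1, while the muscle-type Eno3, at a far lower level, had 20.1%. Tpi1 averaged 722 ± 50.2 CPM in SP MAT2Ai, 723 ± 29.7 in SP placebo, 665 ± 61.7 in WT MAT2Ai and 698 ± 34.6 in WT placebo. Pgk1, phosphoglycerate kinase and the first step that yields ATP, averaged 134 ± 9.33 CPM in SP MAT2Ai, 130 ± 8.13 in SP placebo, 123 ± 7.11 in WT MAT2Ai and 130 ± 7.02 in WT placebo. In none of the 4 comparisons of 2 groups were the ranges of these enzymes apart. Of all tested genes only 1.19% to 3.4% had ranges apart in these comparisons. Eno1, the general enolase, averaged 179 ± 13.6 CPM in SP MAT2Ai, 167 ± 17.7 in SP placebo, 183 ± 6.44 in WT MAT2Ai and 182 ± 7.02 in WT placebo. Ldha averaged 537 ± 50.9 CPM in SP MAT2Ai, 511 ± 33.5 in SP placebo, 486 ± 50.5 in WT MAT2Ai and 487 ± 16.8 in WT placebo, and so had its highest mean in SP MAT2Ai.

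Of the gluconeogenic members, Fbp1 averaged 1247 ± 82.7 CPM in SP MAT2Ai, 1206 ± 89.0 in SP placebo, 1068 ± 251 in WT MAT2Ai and 1249 ± 71.2 in WT placebo. The phosphatase it encodes removes a phosphate from fructose 1,6-bisphosphate. Slc37a4, the carrier that brings glucose 6-phosphate to the phosphatase, averaged 308 ± 26.4 CPM in SP MAT2Ai, 322 ± 31.5 in SP placebo, 297 ± 58.6 in WT MAT2Ai and 321 ± 22.5 in WT placebo. Both had their lowest mean and largest spread in WT MAT2Ai, the group with replicate 2. Pck2 averaged 13.7 ± 0.58 CPM in SP MAT2Ai, 14.0 ± 0.63 in SP placebo, 14.8 ± 2.29 in WT MAT2Ai and 13.6 ± 0.54 in WT placebo. At the entry to mitochondria, Mpc1 averaged 97.5 ± 6.87 CPM in SP MAT2Ai, 94.3 ± 6.91 in SP placebo, 87.0 ± 11.2 in WT MAT2Ai and 95.6 ± 5.02 in WT placebo, and Mpc2 averaged 309 ± 19.2 CPM in SP MAT2Ai, 324 ± 27.4 in SP placebo, 298 ± 53.3 in WT MAT2Ai and 339 ± 28.2 in WT placebo. Pdhb, the partner of Pdha1, averaged 118 ± 8.54 CPM in SP MAT2Ai, 119 ± 5.97 in SP placebo, 109 ± 17.2 in WT MAT2Ai and 119 ± 2.94 in WT placebo.

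Some members have processed pseudogenes of near-identical sequence in mouse, Gapdh above all, and 48.3 to 63.6 alignments per 100 gene counts were multiply mapped and not assigned, so levels of such members are partial. On the opposite strand, exons of Pfkp share 748 bases with Pitrm1, those of Gpi1 741 with Gm26762, those of Pklr 711 with Hcn3 and those of Pdha1 603 with Map3k15. Whether counting used strand was not stated, so the values of these members are uncertain to that extent. Exons of Pfkfb2 share 1262 bases with Gm29427 on the same strand, an overlap that either setting leaves.

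The first comparison asked what MAT2Ai did in mice with mutant SGLT2. In SP MAT2Ai against SP placebo mice, 0 of the 33 members passed an edgeR adjusted p of 0.05, and 3 of 16152 genes did (0.0186%). At an unadjusted p under 0.05 there were 2 members, Gapdh and Pfkfb4, both higher with MAT2Ai, where 5.92% of all tested genes reached that level. DESeq2 and limma-voom also called 0 members. Log2 fold changes were positive for 22 members and negative for 11, with a median of 0.06 against 0.0019 over all tested genes, and 28 of the 33 were smaller than 0.25 in size. The median standard error of a member was 0.10.

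Gapdh had 726, 658, 729, 721 and 732 CPM in SP MAT2Ai libraries, against 577, 656, 657, 651 and 672 CPM in SP placebo libraries. A single SP MAT2Ai library lay inside the SP placebo range. The log2 fold change was 0.15 ± 0.06 (SE, edgeR adjusted p = 0.833). Pfkfb4, a source of fructose 2,6-bisphosphate known from testis and hypoxic cells, had 10.9, 9.60, 11.3, 11.7 and 11.4 CPM in SP MAT2Ai libraries, against 8.66, 8.33, 10.3, 10.5 and 7.75 CPM in SP placebo libraries. The groups overlapped in the range of 9.60 to 10.5 CPM, and the log2 fold change was 0.27 ± 0.12 (edgeR adjusted p = 0.833).

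Pck1 and G6pc spread widely in SP MAT2Ai mice. Pck1 had 3243, 5178, 6776, 5418 and 5337 CPM in SP MAT2Ai libraries, against 4306, 4377, 4745, 4038 and 3668 CPM in SP placebo libraries. The SP MAT2Ai libraries held both the lowest and the highest Pck1 level of the 20, and the log2 fold change of 0.30 ± 0.16 did not pass (edgeR adjusted p = 0.898). G6pc had 348, 647, 1072, 398 and 691 CPM in SP MAT2Ai libraries, against 433, 647, 589, 383 and 518 CPM in SP placebo libraries, again with both ends of the 20 libraries in SP MAT2Ai. Its log2 fold change was 0.30 ± 0.26 (edgeR adjusted p = 0.978), and 0.02 ± 0.23 without SP MAT2Ai replicate 3. The lowest G6pc and Pck1 values came from the same library, SP MAT2Ai replicate 1, and the highest from replicate 3.

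The remaining members of smallest p were Aldoa (log2 fold change 0.11 ± 0.06), Ldhb (0.10 ± 0.06) and Khk (-0.18 ± 0.11), with edgeR adjusted p of 0.916, 0.923 and 0.929. Hk1 differed by 0.07 ± 0.11 and Pkm by -0.05 ± 0.09 on the log2 scale (edgeR adjusted p = 0.988 and 0.994). Without SP placebo replicates 1 and 2 no member was called either. No member had groups with ranges apart, where 1.58% of all tested genes did.

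**Figure D3:**
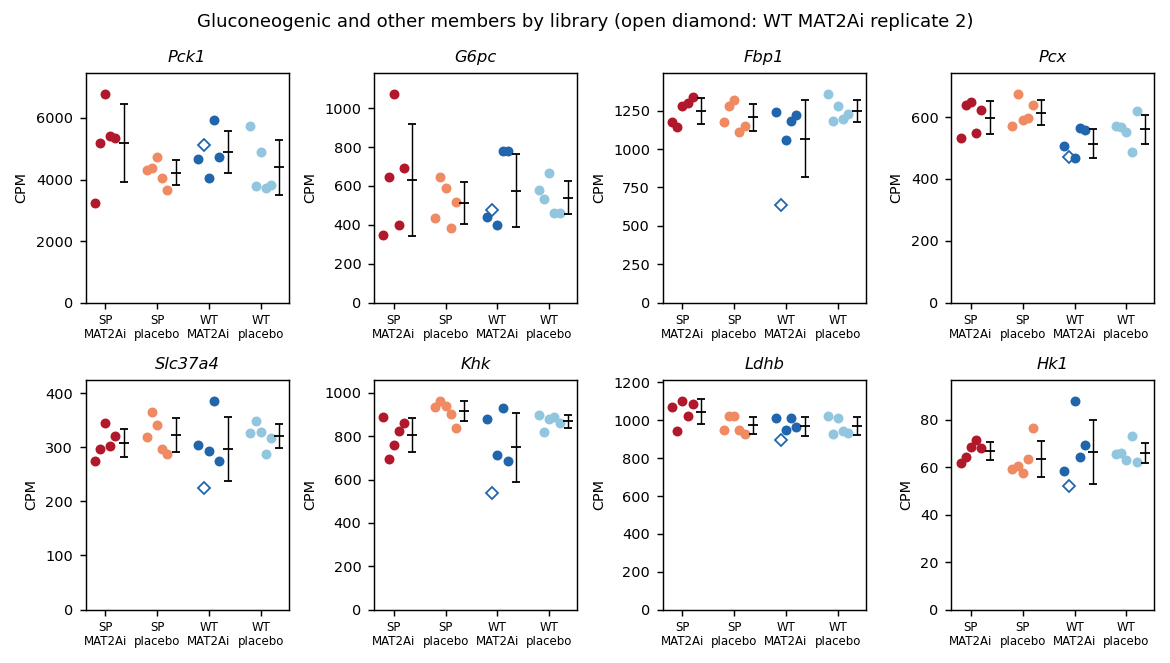
CPM of 8 gluconeogenic and other members (y axes, from 0) in each library of the 4 groups (x axis), with mean ± SD to the right of the points and an open diamond for WT MAT2Ai replicate 2. Pck1 and G6pc spread most within SP MAT2Ai (Pck1 3243 to 6776 CPM), and Fbp1, Slc37a4 and Khk were lowest in the open diamond.

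The second comparison put the same question to mice with intact SGLT2. In WT MAT2Ai against WT placebo mice, 0 of 33 members and 0 of 16152 genes (0%) passed an edgeR adjusted p of 0.05. At an unadjusted p under 0.05 there were 5 members, Pfkfb3, Pfkp, Pfkfb4, Hk2 and Pkm, each higher with MAT2Ai, where 15.7% of all tested genes reached that level. The 5 members are 15.2% of the 33, no more than that share. Other members at the same steps went both ways. Log2 fold changes were positive for Pfkfb2 (0.15), Pfkl (0.08) and Hk1 (0.01) and negative for Pfkm (-0.19) and Pklr (-0.11). Hk1, Pfkm and Pklr were each at their lowest of 20 libraries in WT MAT2Ai replicate 2. DESeq2 called 2 members, Pfkfb3 (adjusted p = 0.0127) and Pfkp (adjusted p = 0.0388), and limma-voom with sample weights called 0. Log2 fold changes were positive for 16 members and negative for 17, with a median of -0.00083 against 0.01 over all tested genes.

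Pfkfb3, the inducible source of fructose 2,6-bisphosphate, had 9.62, 28.9, 16.04, 16.05 and 14.7 CPM in WT MAT2Ai libraries, against 10.3, 10.0, 9.10, 9.79 and 9.53 CPM in WT placebo libraries. WT MAT2Ai replicates 2 to 5 were above every WT placebo library, and replicate 1 was within the placebo range. The log2 fold change was 0.81 ± 0.19 (edgeR adjusted p = 0.137), and it was 0.53 ± 0.14 without WT MAT2Ai replicate 2 (edgeR adjusted p = 0.288). Without WT MAT2Ai replicate 1 it was 0.94 ± 0.16 and passed (edgeR adjusted p = 0.0403). Pfkp, the platelet-type subunit of phosphofructokinase, had 27.8, 81.2, 39.2, 39.9 and 33.4 CPM in WT MAT2Ai libraries, against 22.6, 28.6, 28.3, 25.9 and 27.3 CPM in WT placebo libraries. Here too only WT MAT2Ai replicate 1 fell within the placebo range. The log2 fold change was 0.74 ± 0.20 (edgeR adjusted p = 0.156), and 0.40 ± 0.12 without replicate 2 (edgeR adjusted p = 0.323).

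Pfkfb4 had 9.39, 7.78, 9.99, 11.9 and 9.78 CPM in WT MAT2Ai libraries, against 9.25, 9.36, 7.26, 7.22 and 6.89 CPM in WT placebo libraries. In this case replicate 2 was the lowest of its group, and the log2 fold change was 0.29 ± 0.12 with it and 0.36 ± 0.11 without it (edgeR adjusted p = 0.255 and 0.341). Hk2 had 0.454, 0.916, 0.806, 0.391 and 0.244 CPM in WT MAT2Ai libraries, against 0.209, 0.610, 0.113, 0.166 and 0.219 CPM in WT placebo libraries (log2 fold change 1.08 ± 0.50, edgeR adjusted p = 0.305). The groups overlapped, and Hk2 was the least abundant member. Its log2 fold change was 0.83 ± 0.52 without replicate 2. Pkm, the pyruvate kinase of most tissues, had 127, 162, 177, 152 and 141 CPM in WT MAT2Ai libraries, against 122, 141, 134, 146 and 119 CPM in WT placebo libraries. Its log2 fold change was 0.20 ± 0.09 (edgeR adjusted p = 0.314).

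The members of pyruvate entry all had lower means with MAT2Ai in WT mice, and none passed the test. Their log2 fold changes ran from -0.18 to -0.11, and each of the 4 was at its lowest of 20 libraries in replicate 2. Khk differed by -0.22 ± 0.11 (edgeR adjusted p = 0.338) and by -0.12 ± 0.09 without replicate 2. Hk1 (0.01 ± 0.11) and G6pc (0.09 ± 0.26) had edgeR adjusted p of 0.981 and 0.891. No member had groups with ranges apart, where 2.19% of all tested genes did.

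**Figure D4:**
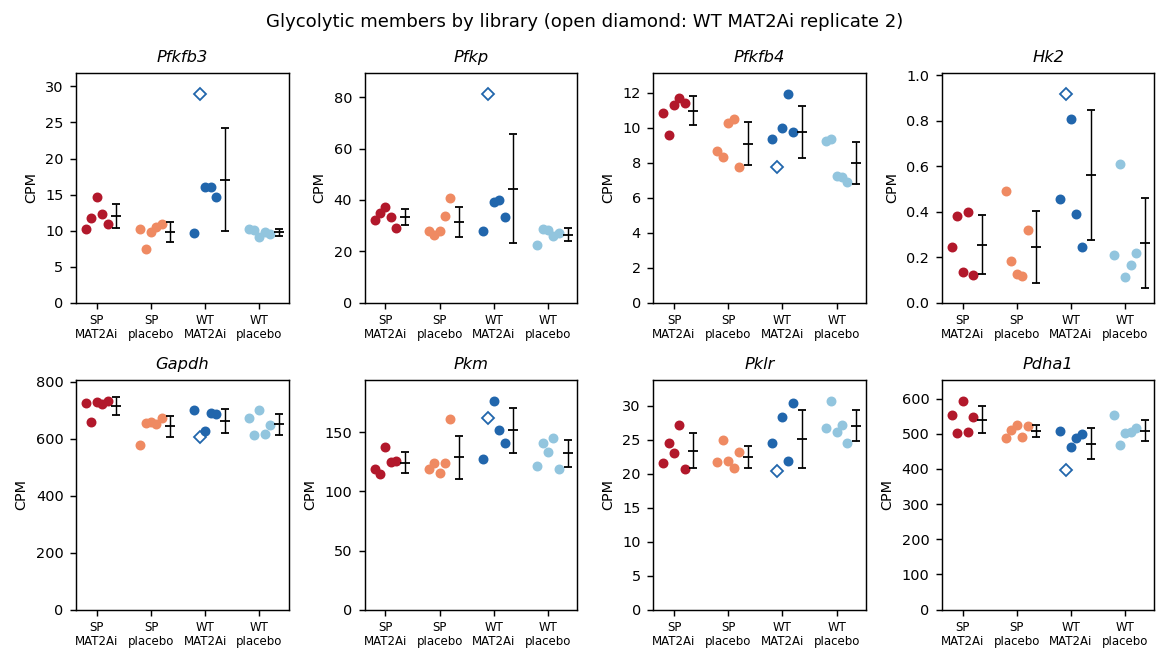
CPM of 8 members of glycolysis and pyruvate entry (y axes, from 0) in each library of the 4 groups (x axis), with mean ± SD to the right of the points and an open diamond for WT MAT2Ai replicate 2. Pfkfb3 reached 14.7 to 28.9 CPM in 4 of 5 WT MAT2Ai libraries, against 9.10 to 10.3 CPM in WT placebo.

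The third comparison asked what the SP mutation did under placebo. In SP placebo against WT placebo mice, 0 of 33 members and 0 of 16152 genes (0%) passed an edgeR adjusted p of 0.05. The 1 member at an unadjusted p under 0.05 was Pklr, where 3.75% of all tested genes reached that level. DESeq2 and limma-voom called 0 members. Positive log2 fold changes numbered 16 and negative ones 17, with a median of -0.00085 against 2.07e-05 over all tested genes, and 32 of 33 were smaller than 0.25 in size.

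Pklr had 21.7, 24.9, 21.8, 20.9 and 23.2 CPM in SP placebo libraries, against 26.8, 30.7, 26.2, 27.3 and 24.5 CPM in WT placebo libraries. The groups met at 24.5 to 24.9 CPM and were otherwise apart, and the log2 fold change was -0.27 ± 0.10 (edgeR adjusted p = 1.0). Red cells also make this enzyme, and the 7 erythroid markers, all of them detected, summed to 332 to 1038 CPM in SP placebo libraries and 334 to 721 CPM in WT placebo libraries. Their part in the Pklr values was not tested. Pcx, the first enzyme of gluconeogenesis from pyruvate, had 571, 674, 591, 596 and 638 CPM in SP placebo libraries, against 570, 568, 553, 488 and 621 CPM in WT placebo libraries, a log2 fold change of 0.13 ± 0.08.

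Eno1 (log2 fold change -0.12 ± 0.07), Pfkfb4 (0.19 ± 0.12), Pfkp (0.24 ± 0.20) and Ldha (0.07 ± 0.08) completed the 6 members of smallest p. Hk1 differed by -0.06 ± 0.11, Pkm by -0.04 ± 0.09 and G6pc by -0.07 ± 0.26. All these had an edgeR adjusted p of 1.0, and leaving out SP placebo replicates 1 and 2 gave 0 called members as well. No member had groups with ranges apart, where 1.19% of all tested genes did.

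The fourth comparison was of genotype under MAT2Ai. In SP MAT2Ai against WT MAT2Ai mice, 0 of 33 members passed an edgeR adjusted p of 0.05, where 298 of 16152 genes did (1.84%). At an unadjusted p under 0.05 there were 7 members, where 21.8% of all tested genes reached that level. Gpi1, Pfkm, Pcx and Pdha1 were the 4 higher in SP MAT2Ai, and Pkm, Pfkfb3 and Hk2 the 3 lower. DESeq2 called 1 member, Pdha1 (adjusted p = 0.0478), and limma-voom with sample weights called 0. Positive log2 fold changes numbered 23 and negative ones 10, with a median of 0.11 against -0.02 over all tested genes. WT MAT2Ai replicate 2 was the lowest of all 20 libraries for 15 of the 33 members, among them Gpi1 and Pfkm (21.3 CPM). The counts by direction were not repeated without that library.

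Pkm had 119, 115, 138, 125 and 126 CPM in SP MAT2Ai libraries, against 127, 162, 177, 152 and 141 CPM in WT MAT2Ai libraries. Of the SP MAT2Ai libraries 1 was above the lowest WT MAT2Ai library, and the log2 fold change was -0.29 ± 0.09 (edgeR adjusted p = 0.0942). It was -0.26 ± 0.10 without WT MAT2Ai replicate 2 (edgeR adjusted p = 0.162). Pdha1, the regulated subunit of pyruvate dehydrogenase, had 553, 501, 593, 506 and 548 CPM in SP MAT2Ai libraries, against 507, 398, 463, 489 and 499 CPM in WT MAT2Ai libraries. The groups overlapped between 501 and 507 CPM, with a log2 fold change of 0.20 ± 0.07 (edgeR adjusted p = 0.102) and of 0.14 ± 0.06 without replicate 2 (edgeR adjusted p = 0.186). Pcx had 533, 638, 647, 547 and 624 CPM in SP MAT2Ai libraries, against 506, 471, 469, 565 and 559 CPM in WT MAT2Ai libraries (log2 fold change 0.22 ± 0.08, edgeR adjusted p = 0.117). Summed levels of marker lists are given for the same groups without a test, and the ranges of each list given overlapped. The 7 collecting duct markers summed to 697 to 961 CPM in SP MAT2Ai libraries and 587 to 962 CPM in WT MAT2Ai libraries. The 8 macrophage markers summed to 32.3 to 66.9 CPM in SP MAT2Ai libraries and 62.0 to 100.1 CPM in WT MAT2Ai libraries, and the 6 endothelial markers to 80.6 to 118 CPM in SP MAT2Ai and 75.5 to 221 CPM in WT MAT2Ai, with every marker detected. The 11 proximal tubule markers summed to 20794 to 22889 CPM in SP MAT2Ai and 11775 to 20953 CPM in WT MAT2Ai. Their part in the values of Pkm, Pdha1 and Pcx was not tested.

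Pfkfb3 had 10.2, 11.8, 14.6, 12.3 and 10.9 CPM in SP MAT2Ai libraries, and the WT MAT2Ai values are those given above. Its log2 fold change was -0.51 ± 0.19 (edgeR adjusted p = 0.128), -0.23 ± 0.14 without WT MAT2Ai replicate 2 (edgeR adjusted p = 0.374) and -0.65 ± 0.16 without WT MAT2Ai replicate 1 (edgeR adjusted p = 0.0350, the 1 member then called). Gpi1, glucose 6-phosphate isomerase, had a log2 fold change of 0.15 ± 0.06 and Hk2 of -1.13 ± 0.50 (edgeR adjusted p = 0.161 and 0.198). Without WT MAT2Ai replicate 2 that of Gpi1 was 0.11 ± 0.06 (edgeR adjusted p = 0.299) and that of Hk2 -0.88 ± 0.52. Hk1 differed by 0.01 ± 0.11 and G6pc by 0.13 ± 0.26 (edgeR adjusted p = 0.976 and 0.799). No member had groups with ranges apart, where 3.4% of all tested genes did. This comparison shares its libraries with both treatment comparisons, so the sets of members are not independent of each other.

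**Figure D5:**
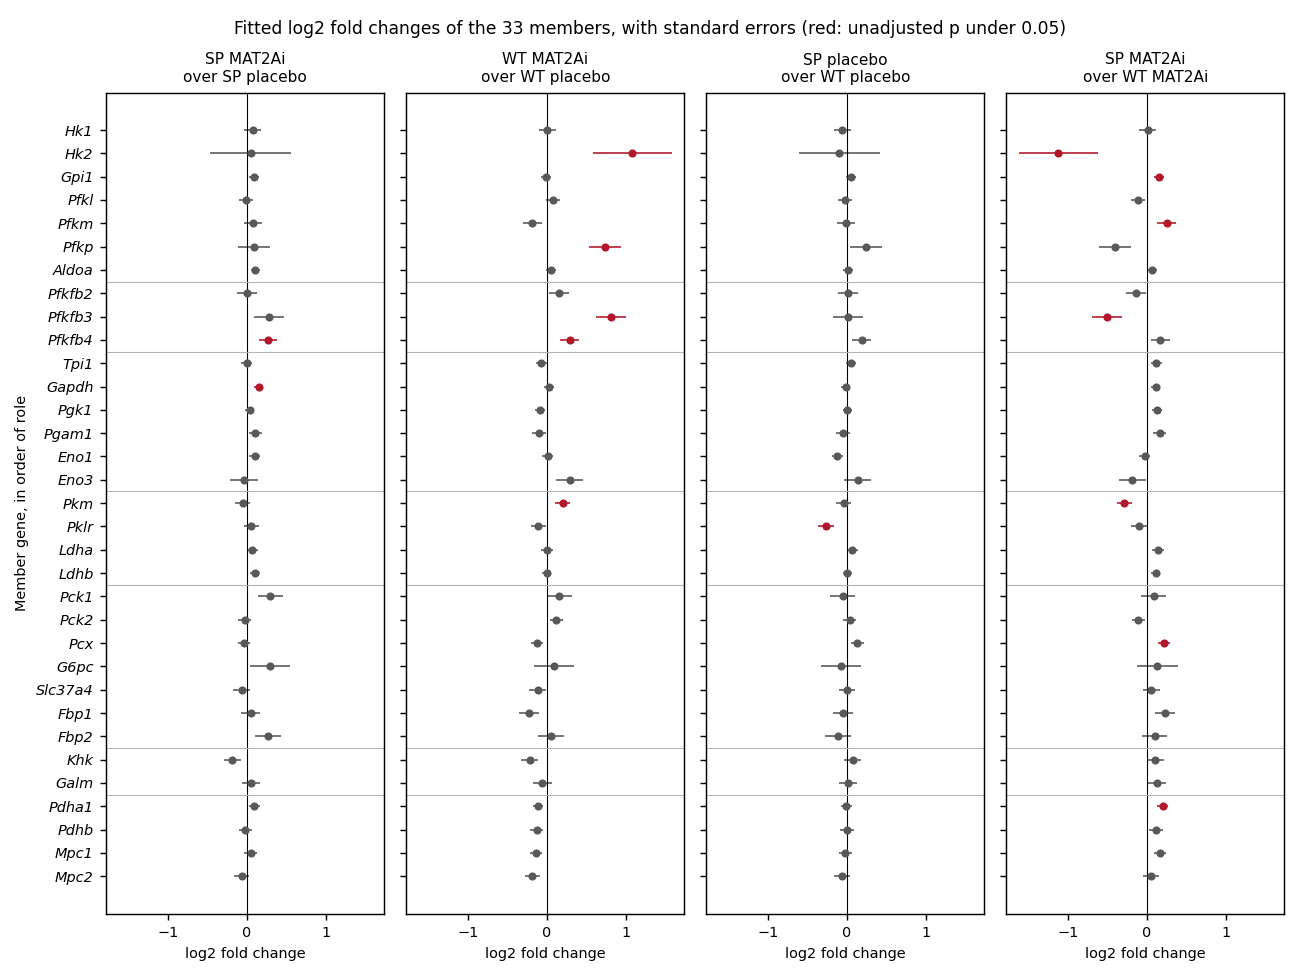
Log2 fold changes of the 33 members (x axes) with standard errors as bars, in order of role (y axis), for the 4 comparisons of 2 groups. Red points have an unadjusted p under 0.05 (2, 5, 1 and 7 members from left to right) and none passed an edgeR adjusted p of 0.05.

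Averaged over both genotypes, MAT2Ai against placebo gave 0 of 33 called members, where 36 of 16152 genes were called (0.223%), and 4 members at an unadjusted p under 0.05, where 14.7% of all tested genes reached that level. Pfkfb3 differed by 0.55 ± 0.13 on the log2 scale (edgeR adjusted p = 0.104, and 0.0819 without WT MAT2Ai replicate 2). DESeq2 called it (adjusted p = 0.0133), and so did edgeR without WT MAT2Ai replicate 1 (adjusted p = 0.0204). Pfkfb4 differed by 0.28 ± 0.08 (edgeR adjusted p = 0.186), with fold changes of like size in SP mice (0.27) and WT mice (0.29). Pfkp differed by 0.41 ± 0.14 and Khk by -0.20 ± 0.08 (edgeR adjusted p = 0.238 and 0.259), and without WT MAT2Ai replicate 2 Pfkp differed by 0.24 ± 0.08. Pkm (0.08 ± 0.07), G6pc (0.19 ± 0.18) and Hk1 (0.04 ± 0.07) had edgeR adjusted p of 0.607, 0.626 and 0.823.

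Averaged over both treatments, SP against WT gave 0 of 33 called members, where 215 of 16152 genes were called (1.33%), and 5 members at an unadjusted p under 0.05, where 19.6% of all tested genes reached that level. Pcx had the smallest p, with a log2 fold change of 0.18 ± 0.06 (edgeR adjusted p = 0.0997). DESeq2 called Pcx (adjusted p = 0.0416), and limma-voom with sample weights called 3 members, Pcx (log2 fold change 0.20, adjusted p = 0.0239), Pklr (-0.22, adjusted p = 0.0266) and Ldha (0.14, adjusted p = 0.0497). In the edgeR fit Pklr differed by -0.19 ± 0.07, Pkm by -0.16 ± 0.07 and Gpi1 by 0.10 ± 0.04 (edgeR adjusted p = 0.152, 0.189 and 0.211). Hk1 differed by -0.03 ± 0.07 and G6pc by 0.03 ± 0.18.

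The interaction, the MAT2Ai log2 fold change in SP mice minus that in WT mice, gave 0 of 33 called members and 0 of 16152 genes (0%), with 2 members at an unadjusted p under 0.05, where 5.59% of all tested genes reached that level. DESeq2 called 1 gene and limma-voom 0, in neither case a member. Pfkp (-0.65 ± 0.29), Pdha1 (0.20 ± 0.10), Pfkfb3 (-0.52 ± 0.27) and Pkm (-0.25 ± 0.13) had the smallest p, each with an edgeR adjusted p of 0.842. Without WT MAT2Ai replicate 2 the interaction was -0.31 ± 0.17 for Pfkp and -0.24 ± 0.19 for Pfkfb3. A difference between SP and WT mice in the response of these genes to MAT2Ai was thus not shown. G6pc (0.21 ± 0.36) and Hk1 (0.07 ± 0.15) had edgeR adjusted p of 0.934 and 0.948.

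Isozyme choice was examined as log2 ratios of 8 pairs within a library, with exact two-sided permutation tests over the 252 splits of 5 against 5 libraries in each of the 4 comparisons. Of the 32 tests 0 passed after adjustment over all 32, and 6 had an exact p under 0.05. With 252 splits the exact p cannot fall below a floor, and a single test at that floor could not pass the adjustment. The lack of a pass therefore decides nothing about isozyme choice. Pfkm over Pfkl was -0.12 ± 0.16 in SP MAT2Ai and -0.51 ± 0.34 in WT MAT2Ai (SD, n = 5 each; exact p = 0.0159, adjusted p = 0.254), and WT MAT2Ai replicate 2 held the lowest ratio, -1.09. Eno3 over Eno1, the muscle-type over the general enolase, was -5.28 ± 0.23 in WT MAT2Ai and -5.55 ± 0.05 in WT placebo (exact p = 0.0159, adjusted p = 0.254). Pkm over Pklr was 2.51 ± 0.19 in SP placebo and 2.28 ± 0.10 in WT placebo (exact p = 0.0397, adjusted p = 0.254). Ldha over Ldhb, which sets the makeup of lactate dehydrogenase, differed between groups by -0.03 to 0.06 over the 4 comparisons, with exact p from 0.198 to 0.937.

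Around the members, 7 lists with 90 other genes of glucose metabolism were followed, of which 83 were tested. In SP MAT2Ai against SP placebo 0 of the 83 were called, and 3 higher and 2 lower had an unadjusted p under 0.05. Of all tested genes 5.92% reached that level. The genes of smallest p in their lists were Eno1b (log2 fold change 0.14), Gpd2 (-0.28), Pdk2 (0.15), Emb (0.13), Slc5a10 (-0.12), Slc5a2 (-1.16) and Crtc2 (0.18). The Slc5a2 value rests on SP placebo replicates 1 and 2 and was 0.16 without them. In WT MAT2Ai against WT placebo 0 of 83 were called, with 10 higher and 6 lower at that level, where 15.7% of all tested genes were. Genes of smallest p in their lists included Eno2 (0.97), Slc25a10 (-0.21), Pdk4 (2.87), Slc16a1 (1.05), Slc2a1 (0.25) and Mlxipl (0.60). Pdk4, a kinase that turns pyruvate dehydrogenase off, had 244 CPM in WT MAT2Ai replicate 2, 5.60 to 14.3 CPM in the other 4 WT MAT2Ai libraries and 6.22 to 9.48 CPM in WT placebo libraries. Without that library the log2 fold change was 0.33 ± 0.31 for Pdk4, 0.15 ± 0.20 for Slc16a1, 0.59 ± 0.27 for Eno2 and -0.13 ± 0.07 for Slc25a10.

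In SP placebo against WT placebo 0 of 83 were called, with 2 higher and 1 lower at an unadjusted p under 0.05. Of all tested genes 3.75% reached that level. The genes of smallest p were Eno1b (-0.12), Got2 (0.07), Pdk3 (0.17), Ldhd (0.27), Dera (0.11), Slc5a2 (-1.62) and Mlx (0.18). The Slc5a2 value combines unlike SP placebo libraries. Replicates 1 and 2 had 241 and 282 CPM, and replicates 3 to 5 had 40.2 to 70.1 CPM. WT placebo libraries had 371 to 518 CPM. In SP MAT2Ai against WT MAT2Ai 2 of 83 were called, Ldhd higher and Slc5a2 lower, where 1.84% of all tested genes were called. At an unadjusted p under 0.05 there were 14 higher and 9 lower, where 21.8% of all tested genes reached that level. Ldhd, the mitochondrial enzyme that turns D-lactate into pyruvate, had 3143, 2815, 2978, 2350 and 2785 CPM in SP MAT2Ai libraries, against 1789, 2005, 1791, 2297 and 2340 CPM in WT MAT2Ai libraries. Every SP MAT2Ai library was above every WT MAT2Ai library, by a narrow margin (2350 against 2340 CPM). Ranges were apart in either direction for 3.4% of all tested genes. Ldhd rose by 0.46 ± 0.11 on the log2 scale (edgeR adjusted p = 0.0440, and 0.0586 without WT MAT2Ai replicate 2). The call was lost without any 1 of 13 of the 20 libraries (edgeR adjusted p from 0.0274 to 0.116 over the 20), and was kept only without SP MAT2Ai replicate 4, SP placebo replicates 1, 4 or 5, WT MAT2Ai replicates 4 or 5, or WT placebo replicate 2. Slc5a2 fell by 2.5 ± 0.42 (edgeR adjusted p = 0.0223, and up to 0.0757 without SP MAT2Ai replicates 2, 3 or 5, each of which ended the call). Pgm1 (0.28), Got2 (0.18), Pdk4 (-2.60) and Dera (0.23) each had the smallest p of their own list. Without WT MAT2Ai replicate 2 the log2 fold change was -0.06 ± 0.31 for Pdk4 and 0.14 ± 0.08 for Dera. Averaged over both treatments, Ldhd (0.37 ± 0.08, edgeR adjusted p = 0.0351) and Slc2a9, a urate and hexose carrier (0.30 ± 0.07, edgeR adjusted p = 0.0416), were higher in SP, and Slc5a2 was lower (-2.06 ± 0.29, edgeR adjusted p = 0.00693). No other gene of the 83 was called in that contrast, where 1.33% of all tested genes were called. Over the 20 libraries left out in turn the adjusted p ran from 0.0191 to 0.0841 for Ldhd and from 0.0185 to 0.0847 for Slc2a9. The Ldhd call was lost in 9 cases, without SP MAT2Ai replicates 1, 2, 3 or 5, SP placebo replicates 3 or 4, WT MAT2Ai replicate 3 or WT placebo replicates 2 or 4. The Slc2a9 call was lost in 14 cases and kept only without SP MAT2Ai replicate 4, WT MAT2Ai replicates 1, 2, 4 or 5, or WT placebo replicate 1. The Slc5a2 call was kept in all 20. Among 8 other alternatives the Slc2a9 call was lost in 4, and those of Ldhd and Slc5a2 in this averaged contrast in 0. The 4 were upper-quartile factors, the replicate block, and leaving out SP placebo replicates 1 and 2 or WT MAT2Ai replicates 2, 3 and 4. In SP MAT2Ai against WT MAT2Ai the Ldhd call was lost in 5 of 9, those 4 and the compared groups alone.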

How the data were processed

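Bulk RNA-Seq of renal cortex was analysed in 20 mice, 5 in each of 4 groups taken from the sample labels. Per the study's methods, the authors aligned poly(A)-selected, directional libraries to mm10 with STAR and deposited raw htseq counts per Ensembl gene. The strand setting of the counting was not given in the sources used here. The deposited counts were used as they are, without the summary lines of the counter. Counts in no feature were 3.87% to 5.49% of gene, no-feature and ambiguous counts together. Low counts were filtered with filterByExpr, TMM factors were computed, and 1 quasi-likelihood model over all 20 libraries, with a coefficient per group, was fitted in edgeR 4.0.16 (R 4.3.3). P-values were adjusted by Benjamini-Hochberg over 16152 genes and called under 0.05. CPM are counts divided by the TMM-scaled library size, per 1000000, and transcripts and symbols come from GENCODE annotation of the same build (42546 of 43430 IDs matched). Alternatives were DESeq2 1.42.0, limma-voom with sample weights (limma 3.58.1), other scaling and filters, the compared groups alone, a replicate block and left-out libraries.

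The members and the gene lists were chosen with earlier results of these data known. Named members were, by a written rule, those past the threshold, the 6 of smallest p in each comparison of 2 groups (4 in the others), and Hk1, Pkm and G6pc, which the study's text discusses, and of each list outside the members the genes past the threshold and the 1 of smallest p. In 2 cases the gene of smallest p in such a list is not reported here. Pfkm was named beside them for its low level in WT MAT2Ai replicate 2, seen in the values. The labels number the replicates without naming animals, so p-values measure the spread between libraries. The edgeR step was run on simulated counts, and the permutation step was checked on fixed values with known answers. Single-nucleus data and the authors' other assays were not used here.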

Additional observations from a re-analysis of the deposited data

Results flagged for a closer look

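Of 132 groups of 5 libraries (33 members in 4 groups), 13 held a library far from the other 4 by Dixon's ratio of gap to range (critical value 0.71). That value flags about 1 in 20 groups of independent, normally distributed values. The members share the same libraries, and the ratio was not computed over all tested genes, so the 13 cannot be read as an excess. WT MAT2Ai replicate 2 gave 4 of the 13. It was low for Pfkm (21.3 CPM, nearest library 36.9 CPM, ratio 0.788) and Pdhb (79.0 CPM, nearest 112 CPM, ratio 0.801), and high for Pfkp (81.2 CPM, nearest 39.9 CPM, ratio 0.773) and Aldoa (847 CPM, nearest 778 CPM, ratio 0.915). The part of its tubule injury markers (8083 CPM summed) in these values was not tested.

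SP placebo replicate 5 was high for Pkm (161 CPM, nearest 125 CPM, ratio 0.799) and Pfkl (59.6 CPM, nearest 44.6 CPM, ratio 0.784). SP placebo replicate 1 was low for Gapdh (577 CPM, nearest 651 CPM, ratio 0.775) and Gpi1 (297 CPM, nearest 337 CPM, ratio 0.712). SP MAT2Ai replicate 2 was low for Gapdh (658 CPM, nearest 721 CPM, ratio 0.846), and SP MAT2Ai replicate 4 was high for Eno3 (6.04 CPM, nearest 3.89 CPM, ratio 0.803). WT placebo replicate 2 was high for Hk2 (0.610 CPM, nearest 0.219 CPM, ratio 0.787) and low for Tpi1 (639 CPM, nearest 704 CPM, ratio 0.745). WT placebo replicate 5 was low for Mpc2 (289 CPM, nearest 346 CPM, ratio 0.806).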

How the results depend on the processing

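No member was called in the main fit, and the number called was 0 in every alternative and comparison except those given here. DESeq2 called 2 members in WT MAT2Ai against WT placebo and 1 member in SP MAT2Ai against WT MAT2Ai, in MAT2Ai against placebo over both genotypes and in SP against WT over both treatments. For that last comparison limma-voom with sample weights called 3. Leaving out each library in turn gave 0 to 1 called members in WT MAT2Ai against WT placebo, in SP MAT2Ai against WT MAT2Ai and in MAT2Ai against placebo over both genotypes, where Pfkfb3 was called without WT MAT2Ai replicate 1, and 0 in the other comparisons. Calls over all genes moved far more. Over the alternatives they ran from 0 to 27 in SP MAT2Ai against SP placebo (3 in the main fit), 0 to 215 in WT MAT2Ai against WT placebo (0), 0 to 7 in SP placebo against WT placebo (0), 2 to 1203 in SP MAT2Ai against WT MAT2Ai (298), 4 to 192 for MAT2Ai (36), 114 to 1341 for SP (215) and 0 to 1 for the interaction (0). Leaving out 1 library gave 0 to 774 in SP MAT2Ai against WT MAT2Ai, lowest without SP MAT2Ai replicate 3, and 20 to 574 for SP, lowest without SP placebo replicate 4.

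Some fold changes changed sign, most of them near 0, but also those of Slc5a2 in SP mice and of Pdk4. For Hk1 in WT mice the log2 fold change for MAT2Ai was -0.0027 with DESeq2, -0.0011 with the compared groups alone and -0.0557 without WT MAT2Ai replicates 2, 3 and 4, and between SP MAT2Ai and WT MAT2Ai it was -0.0146 with upper-quartile factors and -0.0257 with limma-voom. G6pc in WT mice was -0.0523 with limma-voom. Without SP placebo replicates 1 and 2, Slc5a2 was 0.16 in SP mice and Pkm was 0.0074 between SP placebo and WT placebo. Without WT MAT2Ai replicates 2, 3 and 4, Pdk4 was -0.42 in WT mice and 0.69 between SP MAT2Ai and WT MAT2Ai, Pkm was -0.0178 for MAT2Ai over both genotypes, and Hk1 was 0.0040 and G6pc -0.0122 for SP over both treatments. The cause was not tested. Leaving out 1 library, G6pc ran from 0.0224 to 0.454 in SP mice, -0.0440 to 0.187 in WT mice, -0.169 to 0.0168 between placebo groups, -0.142 to 0.289 between MAT2Ai groups, -0.109 to 0.106 for SP and -0.0664 to 0.365 for the interaction. Hk1 ran from -0.124 to 0.0776 in WT mice, -0.0660 to 0.135 between MAT2Ai groups, -0.0259 to 0.0749 for MAT2Ai, -0.0633 to 0.0373 for SP and -0.0055 to 0.196 for the interaction, and Pkm from -0.0906 to 0.0411 in SP mice.

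Replicate numbers did not pair the libraries: the mean correlation of same-numbered libraries was -0.02 over 30 pairs, 4 of them above 0.1, and 6 of 20 libraries correlated best with their own number. With the replicate block 0 members were called in any comparison, calls over all genes were 88 in SP MAT2Ai against WT MAT2Ai and 114 for SP, the calls of Ldhd in SP MAT2Ai against WT MAT2Ai (adjusted p = 0.0650) and Slc2a9 for SP (adjusted p = 0.0708) were lost, Hk1 in WT mice was -0.0050 and G6pc for SP was -0.0226. Depth limits Hk2 most, with 7 to 59 counts per library.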
